A study of Mus musculus with 20 samples.

Results

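Reactive astrocytes were followed through the mRNA of 10 genes in the hippocampus of mice infused with human sRNAs. The genes, Gfap, Vim, Lcn2, Serpina3n, Steap4, Cd44, Osmr, Timp1, S1pr3 and Cp, were taken by name from a table of 25190 genes, and each matched 1 row. They are genes commonly used as markers of astrocyte reactivity, and they were chosen with earlier results of these data known. All 10 passed edgeR's filter on low counts.

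Astrocytes answer injury, infection or protein deposits in the brain with a set of changes called reactive gliosis. They enlarge, fill with intermediate filaments of GFAP and vimentin, and secrete acute-phase and matrix proteins. Cytokines of the interleukin-6 family, which signal through the shared receptor gp130 and the transcription factor STAT3, and cytokines that act through NF-kB are known inducers of this state. Several of its genes are not particular to astrocytes, since CD44, vimentin and TIMP-1 are also made by microglia, invading leukocytes, vessels or meninges.

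The mice were wild-type C57BL/6JOlaHsd males aged 4 months, all with a bilateral cannula implant over the dorsal hippocampus. Vehicle mice received artificial cerebrospinal fluid without RNA. Control mice received pooled sRNAs purified from post-mortem hippocampi of people without psychiatric illness, and Pool 1 and Pool 2 mice received pooled sRNAs from patients with schizophrenia, a separate set of patients in each pool. Each group held 5 mice and each mouse gave 1 library, made 24 hours after the last behavioural test. The 5 mice of a group shared 1 pool of sRNAs, so the p-values measure the spread between mice and not between pools or patients.

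Libraries held 20588280 to 25543939 counts, so that 3 counts, taken as the floor of detection, correspond to 0.117 to 0.146 CPM, the counts scaled to library size. This floor covers counting error only, while the standard errors and 95% intervals of log2 fold changes come from the fit and include the spread between mice. Slc1a2, the main astrocytic glutamate transporter, had group means of 2800 to 2950 CPM, and the water channel Aqp4 had 135 to 189 CPM. These levels mark astrocyte RNA in the tissue. Which cells the reads of the reactive astrocyte genes came from was not tested. In Vehicle replicate 4 the summed level of 8 choroid plexus genes was 38.8 times that of the median mouse, mostly Ttr, at 8330 CPM. In Pool 2 replicate 1 the summed level of the microglial genes was 2.69 times and that of the neutrophil and monocyte genes 7.96 times the median mouse. Results are therefore given over all 20 libraries and over the 18 libraries without these. In bulk tissue, fewer cells of a type and less RNA per cell cannot be told apart.

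All 10 are protein-coding genes. On GRCm38 the genes the comparisons turn on span chr11:102887336-102900912 (Gfap), chr2:102811141-102901665 (Cd44), chr3:19957054-20009145 (Cp), chr2:32384633-32388252 (Lcn2) and chr5:7960457-7982213 (Steap4), and reads of all their exons are summed. The 120 bases upstream of the annotated start are shown for 3 of them, from the RefSeq annotation of GRCm38.p6. Gfap and Cd44 separate the pools of patients below, and Steap4 holds the STAT match. The windows are those of Gfap (chr11:102897201-102897320, minus strand), Cd44 (chr2:102901666-102901785, minus strand) and Steap4 (chr5:7960352-7960471, plus strand, with 15 bases inside an annotated exon). The window of Gfap lies inside the span given above, which comes from GENCODE and starts the gene further upstream, with a noncoding transcript, than RefSeq does. All are written 5′ to 3′ on the strand of the gene, and capitals mark the only match to the STAT motif.
Gfap: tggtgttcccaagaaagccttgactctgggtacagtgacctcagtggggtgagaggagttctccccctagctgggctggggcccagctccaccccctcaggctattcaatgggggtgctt
Cd44: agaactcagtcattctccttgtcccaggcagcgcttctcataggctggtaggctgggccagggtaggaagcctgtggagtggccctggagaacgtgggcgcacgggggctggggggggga
Steap4: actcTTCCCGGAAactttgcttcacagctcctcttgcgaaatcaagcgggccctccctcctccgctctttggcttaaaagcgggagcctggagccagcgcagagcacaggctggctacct
The 250 bases upstream of each start were searched on both strands for TTCNNNGAA, the core letters bound by STAT factors, for TGANTCA, the AP-1 motif, and for TATAAA, the TATA box. The STAT letters occurred in 1 of 11 windows of the 10 genes, that of Steap4 at positions -116 to -108 from the start, and in 7.02% of 32851 windows of all genes. The AP-1 letters occurred in 1 window, of Cp, against 6.75% of all windows, and TATAAA in 3 windows, of Vim, Steap4 and Cp, against 12.4%. Cp has 2 annotated starts and thus 2 windows. No match to the STAT or AP-1 letters was in the windows of Gfap and Cd44, which says only that these letters are absent from this stretch.

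The 10 genes differed widely in level. Per kilobase of exon, the level over the 20 mice was highest for Gfap, at 139 CPM per kb, and for Serpina3n, a secreted inhibitor of serine proteases, at 95.2 CPM per kb. Vim, the intermediate filament that GFAP assembles with, stood at 12.7 CPM per kb. S1pr3, a receptor for sphingosine-1-phosphate, and Cp, the copper-carrying ferroxidase ceruloplasmin, followed at 2.3 and 1.67 CPM per kb. The remaining genes stood under 1 CPM per kb. They were Osmr, the receptor chain for oncostatin M, at 0.591, Lcn2, the iron-siderophore-binding protein lipocalin-2, at 0.589, Cd44, the hyaluronan receptor, at 0.48, Timp1, an inhibitor of matrix metalloproteinases, at 0.458, and Steap4, a metalloreductase, at 0.265 CPM per kb. Osmr, Lcn2, Cd44 and Timp1 were neighbours whose order did not exceed their spread. The level of Lcn2 rested largely on Pool 2 replicate 1, at 7.736 CPM per kb. Its group means were 0.2 in Vehicle, 0.272 in Control and 0.016 in Pool 1 mice, and 0.402 CPM per kb in Pool 2 without that mouse. Of the reads given to 8 Serpina3 paralogs, 99% were Serpina3n, and exons of Cp and S1pr3 overlap those of Hps3 and Gm32834, so their counts are less certain there.

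**Figure D1:**
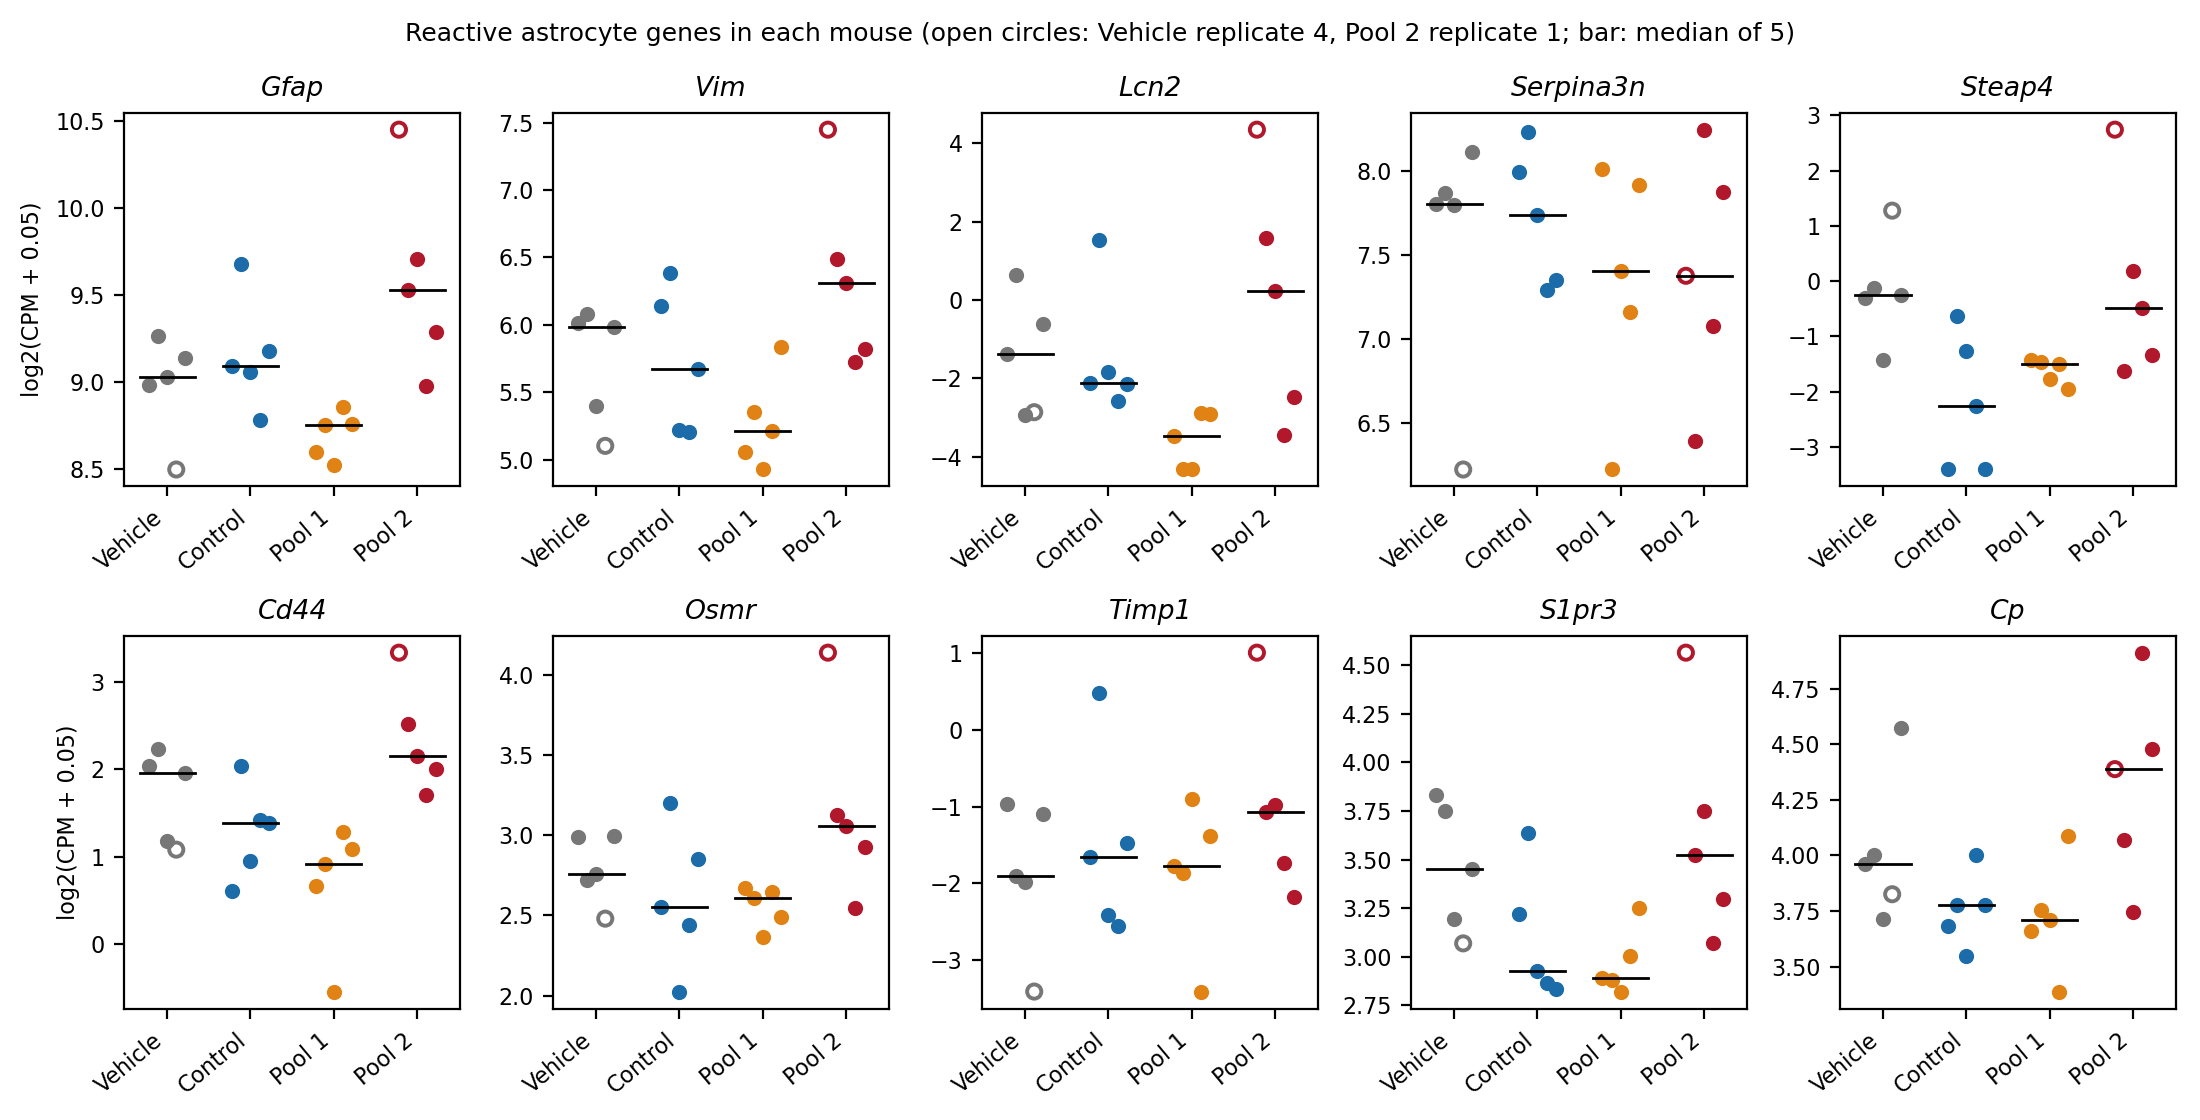
Level of each of the 10 genes in each mouse, as log2 of CPM plus 0.05 (vertical axis, a log scale that differs between panels), by group (horizontal axis), with a bar at the median of 5 mice. Open circles are Vehicle replicate 4 and Pool 2 replicate 1, and the latter is the highest of all mice in 8 of the 10 panels.

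The first comparison asked whether sRNAs of Pool 1 patients changed these genes relative to sRNAs of control individuals. Gfap was downregulated in Pool 1 mice at the study's threshold, which asks for a log2 fold change of 0.3 or more in size and an unadjusted p-value under 0.05. The study applied it to DESeq2 results and also left out genes with a mean count under 10, which was not done here. Gfap was the only one of the 10 genes past that threshold over 20 libraries, 1 of 10 against 1.99% of all genes downregulated. None was upregulated, against 1.48% of all genes. No adjusted p-value passed, since the smallest among the 10 genes was 0.917 (edgeR's quasi-likelihood test with Benjamini-Hochberg adjustment). The log2 fold change was negative for 9 of the 10 genes, with a median of −0.39 beside −0.01 over all genes.

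Gfap stood at 388.4, 431.7, 368.2, 463.5 and 433.4 CPM in the Pool 1 mice, in replicate order. The Control mice gave 546.9, 820.8, 534.6, 439.9 and 579.1 CPM. Control replicate 4 lay within the Pool 1 range, and the other Control mice lay above it. The group means were 417 ± 38.2 (SD, n = 5) in Pool 1 and 584 ± 142 (SD, n = 5) in Control, a log2 fold change of −0.49 ± 0.22 (SE), or 0.714 times, with an unadjusted p-value of 0.0358 in the edgeR fit. With 18 libraries, which keep the same 10 mice of these groups but estimate the spread without the other pair, the p-value was 0.00213 and the adjusted p-value 0.885. Leaving out 1 mouse at a time, the log2 fold change ranged from −0.57 to −0.33, and the threshold was passed in 5 of 10 fits. It was not passed without Control replicate 2 or 5, or without Pool 1 replicate 1, 3 or 5.

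Lcn2 was near the floor in every Pool 1 mouse, with 1, 0, 0, 2 and 2 counts in the replicates. The Control mice had 4, 72, 5, 3 and 4 counts. All Pool 1 mice were therefore below all Control mice, a separation in this direction that 0.349% of all genes showed, but the counts of 4 Control mice were themselves 3 to 5. A fold is not given, because a fitted value for so few counts depends on the prior count. Its edgeR p-value was 0.0634 over 20 libraries and 0.0198 over 18 libraries, where Lcn2 joined Gfap to make 2 of 10 genes downregulated, against 2.3% of all genes.

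The other 8 genes did not pass the threshold in Pool 1 mice in either set of libraries. Cd44 had a log2 fold change of −0.57 ± 0.35 (SE, edgeR p-value 0.12) over 20 libraries and −0.57 ± 0.30 (SE, edgeR p-value 0.0664) over 18. Vim had one of −0.49 ± 0.33 (SE, edgeR p-value 0.151) over 20 libraries and −0.49 ± 0.24 (SE, edgeR p-value 0.062) over 18. Over 18 libraries Cp, at −0.03 ± 0.19 (SE), had a 95% interval of −0.43 to 0.37, and Osmr one of −0.46 to 0.24. Steap4 was low in both groups, at 8, 7, 5, 7 and 5 counts in Pool 1 mice and 1, 15, 8, 4 and 1 counts in Control mice.

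The comparison of Pool 2 with Control used the same Control mice. Over 20 libraries 8 of the 10 genes were upregulated, all but Serpina3n and Timp1, against 5.2% of all genes, and none was downregulated, against 1.01%. Over 18 libraries 3 genes were upregulated, Cp, Cd44 and Steap4, against 3.38% of all genes, and again none was downregulated, against 1.17%. Leaving out 1 mouse, the count was 2 without Pool 2 replicate 1, 9 without Control replicate 2, 4 without Control replicate 3, and 5 without Control replicate 4 or 5. The median log2 fold change of the 10 genes was 0.61 over 20 libraries and 0.31 over 18 libraries, beside 0 over all genes in both sets. The smallest adjusted p-value among the 10 genes was 0.479 and 0.788 in these edgeR fits.

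Cp, the ferroxidase that lets cells release iron, changed least with the choice of libraries. Its levels were 20.89, 16.75, 13.37, 30.05 and 22.21 CPM in Pool 2 mice. Control mice gave 12.79, 13.65, 11.65, 15.98 and 13.66 CPM. Every Pool 2 mouse but replicate 3 lay above every Control mouse. The log2 fold change was 0.61 ± 0.18 (SE, edgeR p-value 0.00317) over 20 libraries and 0.60 ± 0.20 (SE, edgeR p-value 0.007) over 18 libraries, and the call held in 10 of 10 fits that left out 1 mouse. Cp in Vehicle replicate 4, the mouse with the high choroid plexus genes, was 14.13 CPM and inside the range of the other Vehicle mice. Pool 2 replicate 4, the highest mouse for Cp, was also the highest in the summed meningeal and thalamic genes, at 2.33 and 3.21 times the median mouse. With it left out the log2 fold change of Cp was 0.43. Pool 2 replicate 1, at 20.89 CPM of Cp, had 0.944 and 0.821 times the median mouse in these sums. Their part in the difference of Cp was not tested.

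Cd44, the receptor that binds hyaluronan and osteopontin, was at 10.01, 5.647, 4.375, 3.213 and 3.952 CPM in Pool 2 mice. In Control mice it was at 1.475, 4.046, 1.887, 2.624 and 2.565 CPM. The groups overlapped through Control replicate 2, which lay above 2 of the Pool 2 mice. The means were 5.44 ± 2.70 (SD, n = 5) and 2.52 ± 0.979 (SD, n = 5) CPM, a fold of 2.15 and a log2 fold change of 1.10 ± 0.34 (SE, edgeR p-value 0.00375). Without the pair of libraries the fold was 1.70 and the log2 fold change 0.76 ± 0.30 (SE, edgeR p-value 0.0172), and the call held in 10 of 10 fits that left out 1 mouse.

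Steap4 had the largest fold of the 10 genes in this comparison and rested largely on 1 mouse. Its counts in Pool 2 mice were 145, 7, 26, 16 and 8, beside the Control counts given above. Replicate 1 alone gave most of the Pool 2 counts, and the other Pool 2 mice overlapped Control. The log2 fold change was 2.83 ± 0.85 (SE, edgeR p-value 0.00351) with that mouse and 1.25 ± 0.53 (SE, edgeR p-value 0.0274) over 18 libraries. With Pool 2 replicate 1 alone left out it was 1.25 with a p-value of 0.0506 in edgeR's test, so the call was lost, and it held in 9 of 10 fits that left out 1 mouse.

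The remaining genes that were upregulated over 20 libraries did not pass over 18. Gfap was at 1401, 740.2, 836.1, 504.5 and 625.1 CPM in Pool 2 mice, so that its log2 fold change was 0.49 (edgeR p-value 0.0341) over 20 libraries and 0.21 ± 0.15 (SE, p-value 0.166) over 18. Vim, Osmr and S1pr3 had log2 fold changes of 0.70, 0.60 and 0.61 over 20 libraries and of 0.32, 0.27 and 0.30 over 18 libraries. Lcn2 counts were 444, 75, 27, 1 and 3 in Pool 2 mice, which places 2 mice at or under the floor beside the highest of all 20 mice. Its log2 fold change was 2.74 ± 1.20 (SE) over 20 libraries and 0.55 ± 1.02 (SE) over 18.

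Serpina3n and Timp1 gave no call in Pool 2 mice. Serpina3n ranged from 83.69 to 303.4 CPM in Pool 2 and from 156.5 to 300.9 CPM in Control mice, with a log2 fold change of −0.24 and a 95% interval of −1.06 to 0.58. Pool 2 replicate 1, high in most of the other genes, stood at 165.9 CPM for Serpina3n, the median of its group. Timp1 had 43, 11, 11, 6 and 4 counts in Pool 2 mice and 6, 34, 3, 3 and 7 in Control mice. Its log2 fold change was 0.54 over 20 libraries and −0.43 over 18, neither past the threshold.

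**Figure D2:**
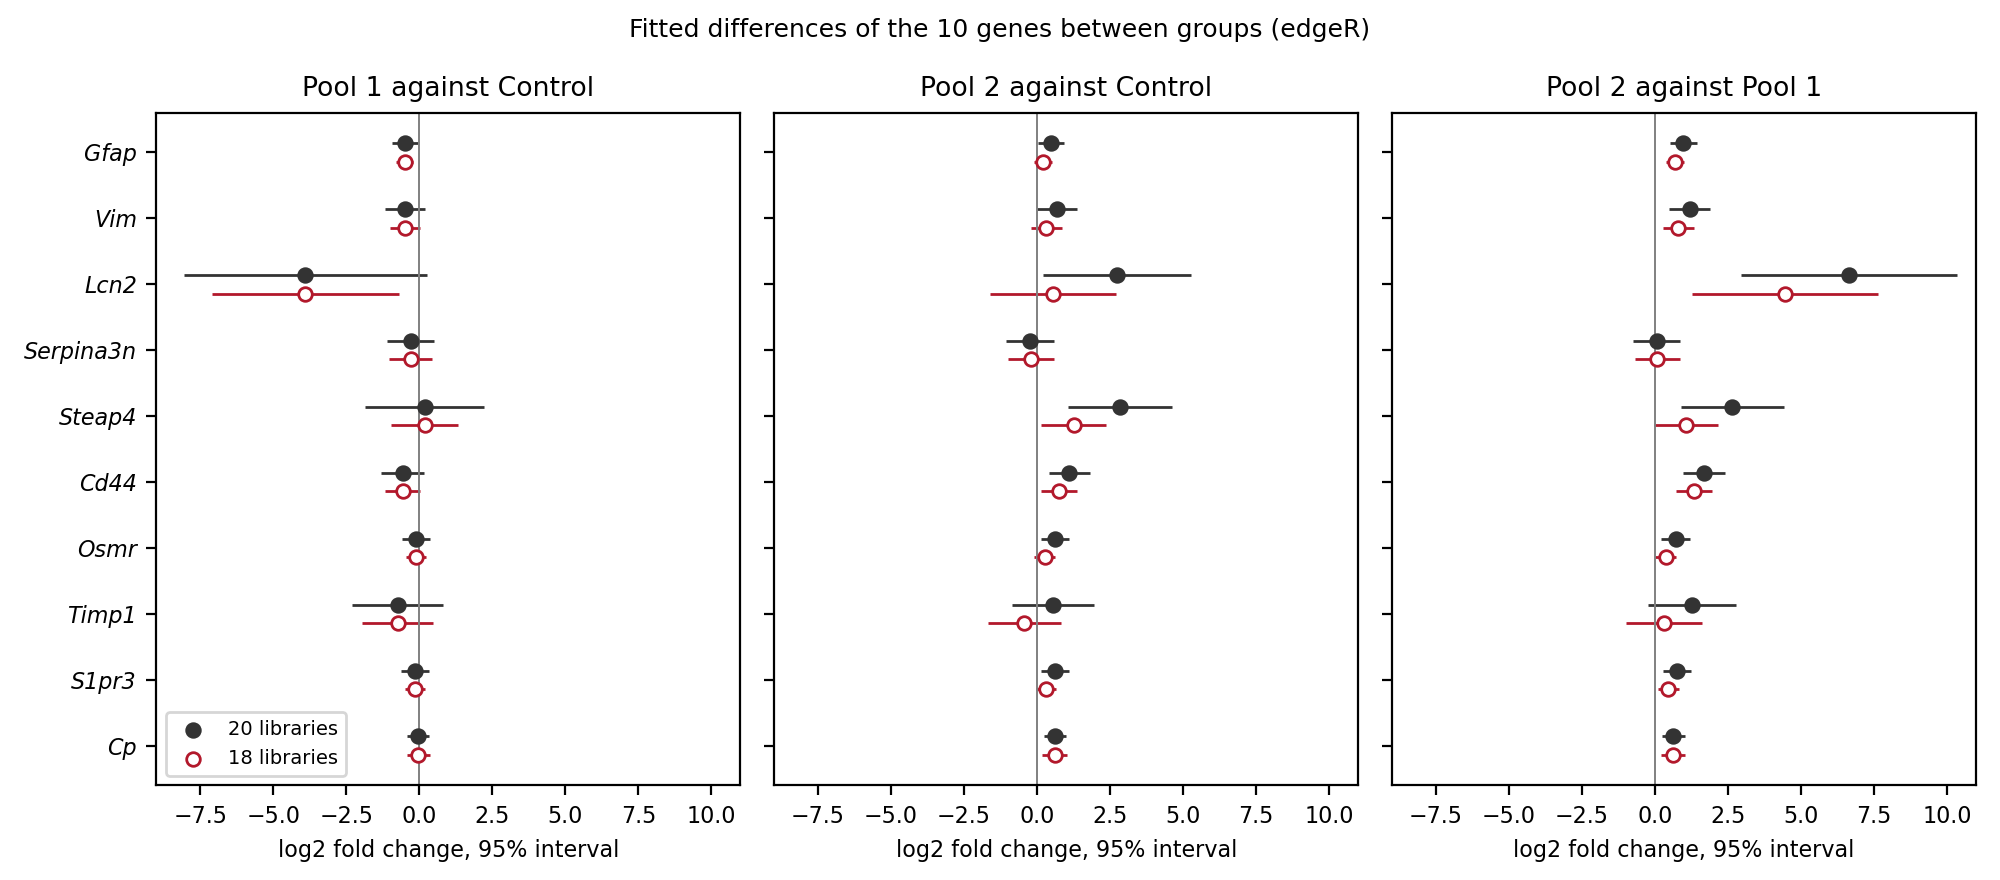
Fitted log2 fold change (horizontal axis) of each gene (vertical axis) with its 95% interval, over 20 libraries (filled) and over 18 libraries (open), in 3 comparisons. Intervals of Cd44 and Cp lie above 0 in both sets for Pool 2 against Control and for Pool 2 against Pool 1, and the intervals of Lcn2 are the widest.

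Set directly against each other, without the Control mice that both comparisons above share, the pools differed in these genes. In Pool 2 mice 8 of the 10 genes were higher than in Pool 1 mice over 20 libraries, all but Serpina3n and Timp1, against 5.66% of all genes, and none was lower, against 1.16%. Over 18 libraries 7 were higher, against 3.91% of all genes, and none lower, against 1.04%, with Steap4 no longer past the threshold (log2 fold change 1.07, edgeR p-value 0.0525). All 10 log2 fold changes were positive in both sets, with a median of 1.08 and 0.66 beside 0.02 and 0.01 over all genes.

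Markers of several other cell types were also higher in Pool 2 than in Pool 1 mice, and their part in the difference was not tested. Of all genes 5.66% were higher over 20 libraries and 3.91% over 18. Of 10 microglial genes 7 were higher over 20 libraries and 0 over 18, with medians of 0.48 and 0.19. Of 10 meningeal fibroblast genes 5 were higher over 20 libraries and 9 over 18, and of 7 thalamic genes 5 and 6, with median log2 fold changes of 0.93 and 1 for the meningeal and 1.29 and 1.46 for the thalamic genes. Of 8 neutrophil and monocyte genes 4 and 3 were higher, of 10 endothelial genes 2 and 1, and of 5 blood genes 3 and 0, while the choroid plexus gene Otx2 was higher in both sets. Otx2 was 1 of 8 choroid plexus genes, and counts of 1 gene in a list are close to the share of all genes. The summed meningeal level ranged from 48.4 to 115 CPM in Pool 1 mice and from 105 to 202 CPM in Pool 2 mice without replicate 1, which had 81.9 CPM. None of the genes of these lists passed the threshold downward in Pool 2 mice. Log2 fold changes were negative for 1 neutrophil and monocyte gene and 1 choroid plexus gene in both sets, and for 1 blood gene over 18 libraries. All 6 genes of CA1 pyramidal neurons were negative in both sets, with medians of −0.37 over 20 libraries and −0.45 over 18. Of 6 ependymal genes 4 were negative over 20 libraries and 3 over 18. All 6 oligodendrocyte and all 5 dentate granule cell genes were positive in both sets. No gene of these last 4 lists passed the threshold.

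Gfap and Cd44 separated the pools completely. The lowest Pool 2 mouse had 504.5 CPM of Gfap and the highest Pool 1 mouse 463.5 CPM. For Cd44 the corresponding values were 3.213 and 2.37 CPM. Such a separation upward held for 0.977% of all genes over 20 libraries and for 1.45% over 18. The log2 fold change of Gfap was 0.98 ± 0.22 (SE, p-value 0.000234, adjusted 0.196) over 20 libraries and 0.70 ± 0.15 (SE, p-value 0.000101, adjusted 0.123) over 18 in edgeR's test. That of Cd44 was 1.67 ± 0.35 (SE, p-value 9.36e-05, adjusted 0.157) and 1.34 ± 0.30 (SE, p-value 0.000235, adjusted 0.15).

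The other calls between the pools were smaller or less even. Vim differed by 1.19 (edgeR p-value 0.00211) over 20 libraries and by 0.81 (p-value 0.00609) over 18 on the log2 scale. Cp differed by 0.64 and 0.63, S1pr3 by 0.77 and 0.46, and Osmr by 0.71 and 0.37, each past the threshold in both sets. Serpina3n, with a log2 fold change of 0.06 and a 95% interval of −0.76 to 0.88, was not distinguishable between the pools at this spread.

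Comparison with Vehicle mice addressed the infusion of human sRNAs as such. In Control mice only Steap4 was downregulated relative to Vehicle over 20 libraries, 1 of 10 genes against 3.41% of all genes, and none was upregulated, against 1.7%. The Vehicle counts of Steap4 were 18, 20, 8, 54 and 17, and the highest belonged to replicate 4. With Vehicle replicate 4 alone left out the log2 fold change of Steap4 was −1.45 with a p-value of 0.118 in edgeR's test, so the call was lost, and it held in 6 of 10 fits that left out 1 mouse. Without that mouse and Pool 2 replicate 1 the log2 fold change was −1.46 ± 0.53 (SE, edgeR p-value 0.0109), and S1pr3 was also downregulated, by 0.45, giving 2 of 10 genes against 3.37% of all genes. Of 8 choroid plexus genes, 3 were lower in Control than in Vehicle mice over 20 libraries and 1 over 18. Gfap and Vim had log2 fold changes of 0.18 and 0.04 over 20 libraries, with 95% intervals of −0.27 to 0.63 and −0.65 to 0.72.

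Pool 1 mice were below Vehicle mice in Steap4, Cd44 and S1pr3 over 20 libraries, 3 of 10 genes against 4.28% of all genes, and none was higher, against 1.06%. Over 18 libraries Gfap, Vim and Lcn2 were added, which made 6 of 10 genes against 4.02% of all genes, and none was higher, against 0.929%. The call of Steap4 held in 3 of 10 fits that left out 1 mouse and that of Cd44 in 10 of 10. Markers of other cells were lower in Pool 1 mice as well, and their part was not tested. All 8 choroid plexus genes were lower over 20 libraries, with a median log2 fold change of −3.28, and 2 over 18. Of 10 microglial genes 2 were lower over 20 libraries and 6 over 18, and of 8 neutrophil and monocyte genes 1 and 3. Cd44 was at 4.045, 4.632, 2.22, 2.062 and 3.817 CPM in Vehicle mice, beside 1.537, 1.838, 0.6309, 2.37 and 2.076 CPM in Pool 1 mice. The log2 fold change was −0.98 ± 0.35 (SE, edgeR p-value 0.0109) over 20 libraries and −1.11 ± 0.31 (SE, edgeR p-value 0.00153, adjusted p-value 0.398) over 18. Without Vehicle replicate 4 every Pool 1 mouse lay below every Vehicle mouse for Gfap and Osmr, a separation downward that 1.16% of all genes showed.

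Pool 2 mice were above Vehicle mice in Gfap, Vim, Lcn2 and Cd44 over 20 libraries, 4 of 10 genes against 2.8% of all genes, and in none below, against 1.89%. No gene of the 10 passed over 18 libraries, where 1.6% of all genes were higher and 1.52% lower, and none had an unadjusted p-value under 0.05. Over 20 libraries 2 of 8 neutrophil and monocyte genes, 2 of 7 thalamic genes and 2 of 5 blood genes were higher as well, and 6 of 8 choroid plexus genes were lower. Over 18 libraries 3 thalamic genes were higher and 0 of the other lists named here passed. For Gfap the log2 fold change was 0.67 ± 0.22 (SE, edgeR p-value 0.00554) with all libraries and 0.29 ± 0.16 (SE, edgeR p-value 0.0754) without the pair. Gfap in Vehicle mice was 507.4, 616.8, 523.9, 361.9 and 563.7 CPM, with the lowest of all 20 mice in replicate 4. The replicate 4 mouse and Pool 2 replicate 1 thus marked the extremes of Gfap in opposite directions.

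Across the mice of all groups the genes moved partly together. Pool 2 replicate 1 was the highest of 20 mice in 8 genes, with a median of 1.55 above the median mouse on the log2 scale, and did not lead in Serpina3n and Cp. Control replicate 2 was among the 3 highest mice for 6 genes. Pool 1 replicates 2 and 4 were above the median mouse for 0 of the 10 genes, and replicates 1 and 3 for 1 each. Over the 18 libraries the rank correlation of levels was 0.86 for Gfap with Lcn2, 0.85 for Vim with S1pr3 and 0.80 for Gfap with Vim. It was −0.04 for Serpina3n with Cp and 0.13 for Serpina3n with Cd44. These are descriptions over mice of 4 groups that share the group differences above, and Lcn2 rests on few counts in most mice.

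**Figure D3:**
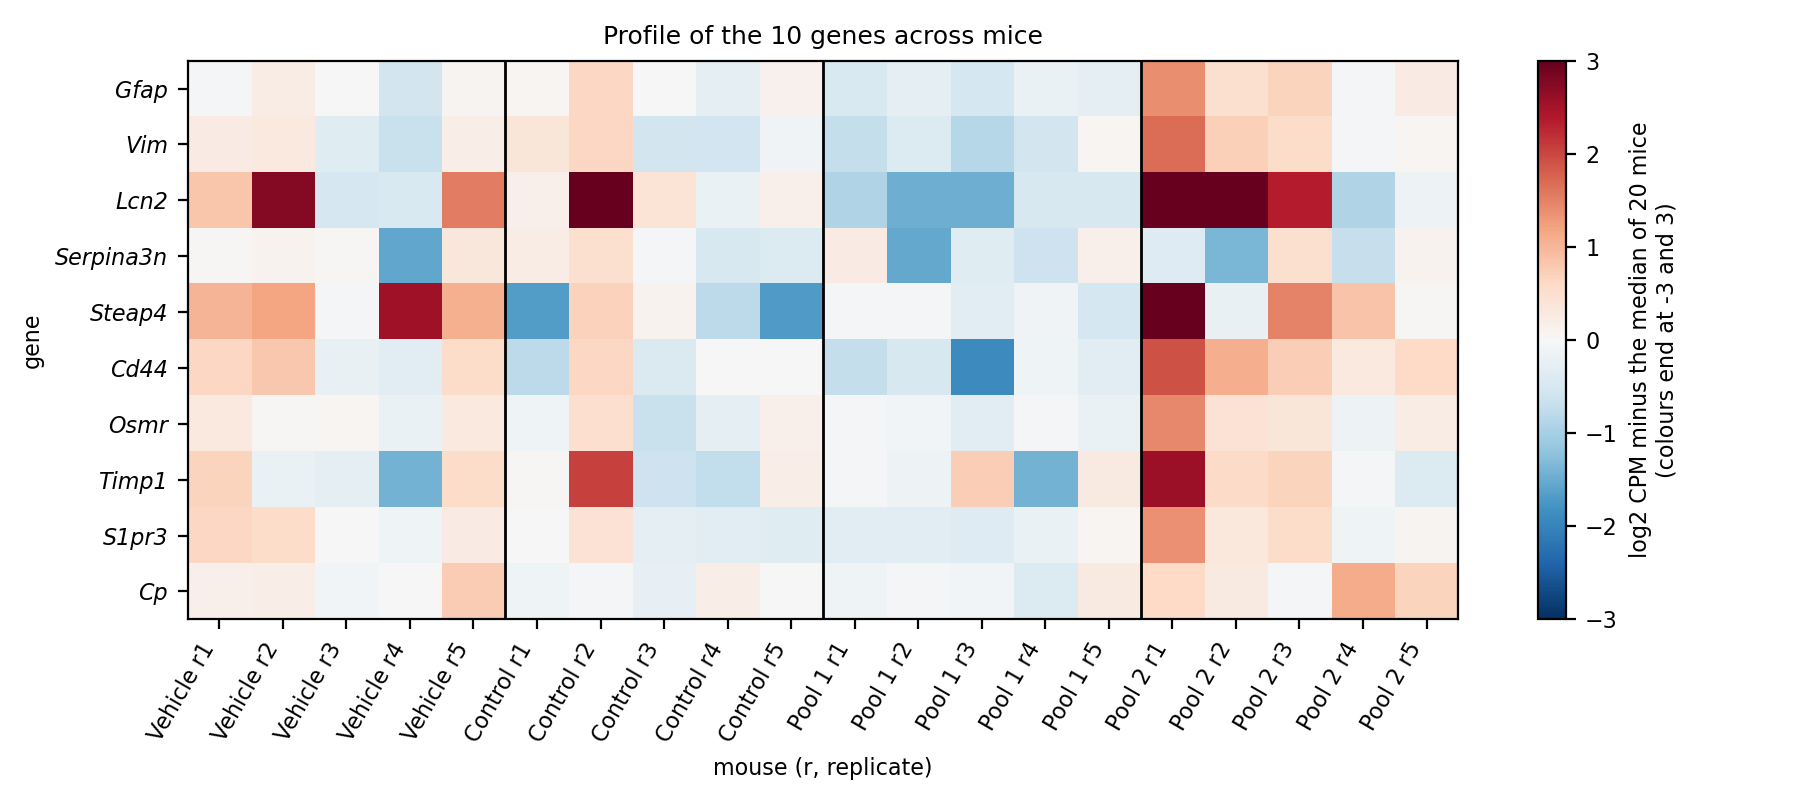
Level of each gene (rows) in each mouse (columns, grouped and separated by black lines) as log2 CPM minus the median of the 20 mice, with colours that end at −3 and 3. Pool 2 replicate 1 and Control replicate 2 are red in most rows, Pool 1 is mostly blue, and Serpina3n and Cp follow other mice than the remaining rows.

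Beyond the 10 genes, a list of 30 other genes that reactive astrocytes induce was followed, of which 29 were in the table. In Pool 2 mice 11 of them were upregulated relative to Control over 20 libraries, against 5.2% of all genes, and 7 over 18, against 3.38%, and none was downregulated, against 1.01% and 1.17%. Aspg, an asparaginase, had a log2 fold change of 0.94 over 20 libraries and 0.77 over 18. Serping1, the inhibitor of complement C1, had 1.11 and 0.88, the matrix protein Fbln5 had 0.84 and 0.92, and the interferon-induced chemokine Cxcl10 had 3.31 and 1.98. Cxcl10 ranged from 0.159 to 0.555 CPM in Control mice and from 0.258 to 10.9 CPM in Pool 2 mice. In Pool 1 mice none of the 29 passed in either direction relative to Control, where 1.48% of all genes were upregulated in both sets, and 1.99% and 2.3% downregulated. The median log2 fold change of the list was 0.44 over 20 libraries and 0.26 over 18 in Pool 2, and −0.14 in Pool 1 in both sets, beside about 0 over all genes. Relative to Vehicle 10 of the 29 were higher in Pool 2 mice over 20 libraries, against 2.8% of all genes. Over 18 libraries 4 were higher, against 1.6%. In Control mice 1 of the 29 was lower than in Vehicle mice over 20 libraries and 4 over 18, against 3.41% and 3.37% of all genes. In Pool 1 mice 2 of the 29 were lower than in Vehicle mice over 20 libraries, against 4.28% of all genes. Over 18 libraries 9 were lower, against 4.02%, and none was higher in either set, against 1.06% and 0.929%.

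The cytokines, receptors and transcription factors that act through gp130, STAT3 and NF-kB, or through the TGF-beta receptor, made a list of 28 genes. In Pool 2 mice 7 were upregulated over 20 libraries, against 5.2% of all genes, and 4 over 18, against 3.38%, with medians of 0.21 and 0.09. The 4 were Tgfbr2, a TGF-beta receptor, with log2 fold changes of 0.58 and 0.40, Socs3, the feedback inhibitor that STAT3 induces, with 1.07 and 0.66, Clcf1, a gp130 cytokine also counted in the list above, with 0.93 and 0.71, and Tnfrsf1a, a receptor for TNF, with 0.50 and 0.32. Socs3 was 1.04 ± 0.326 CPM (SD, n = 5) in Control mice and 1.42 to 4.39 CPM in Pool 2 mice. Over 18 libraries Il6 was downregulated in Pool 2 mice, at very few counts. In Control mice 3 of the 28 were lower than in Vehicle mice in both sets, against 3.41% and 3.37% of all genes. Tgfbr2 and Clcf1 were among them in both sets, and Socs3 over 18 libraries. Relative to Vehicle 4 of the 28 were higher in Pool 2 mice over 20 libraries, against 2.8% of all genes. Over 18 libraries 0 were higher, against 1.6%. Lif, a gp130 cytokine, was the only gene of the 28 downregulated in Pool 1 mice relative to Control. It had a log2 fold change of −0.70 ± 0.24 (SE, edgeR p-value 0.00683). Of all genes 1.99% were downregulated there over 20 libraries and 2.3% over 18. Set against Vehicle mice, Pool 1 mice showed 6 genes of this list past the threshold downward over 20 libraries, beside 4.28% of all genes. The count over 18 libraries was 5, beside 4.02%. Tgfbr2, Socs3 and Clcf1 were among these genes in both sets, and Lif over 20 libraries only. No gene of the list was higher than in Vehicle in either set.

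Ligands, targets and relatives of the 10 proteins made a list of 21 genes. Of the 20 in the table, 2 were upregulated in Pool 2 mice over 20 libraries, against 5.2% of all genes, and 3 over 18, against 3.38%, so that the first count is close to the share of all genes. None passed in Pool 1 mice, where 1.48% of all genes were upregulated and 1.99% downregulated over 20 libraries. They were Spp1, which encodes the CD44 ligand osteopontin, with log2 fold changes of 1.30 and 1.36, Has1, a hyaluronan synthase, with 1.09 and 1.02, and over 18 libraries Sphk1, which makes the S1PR3 ligand, with 0.87. Spp1 ranged from 2.46 to 6.66 CPM in Control mice and from 3.83 to 23.1 CPM in Pool 2 mice, so that the groups overlapped.

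Genes of resting astrocytes did not pass the threshold in either pool relative to Control. Of 15 such genes, among them Slc1a2, Aqp4 and Aldh1l1, none passed in edgeR in these comparisons in either set of libraries. Over 20 libraries 3 of them had an unadjusted p-value under 0.05 in Pool 2 mice, the connexin Gjb6 and the ion transport genes Kcnj10 and Atp1b2, with log2 fold changes of 0.27, 0.29 and 0.22. In Pool 1 mice 1 did, Aqp4, with a log2 fold change of −0.28. The median log2 fold change of the list in Pool 2 mice was 0.12 over 20 libraries and 0 over 18, and −0.07 in Pool 1 mice in both sets. Between the pools 2 of the 15 were higher in Pool 2 mice in both sets, against 5.66% and 3.91% of all genes, Aqp4 with log2 fold changes of 0.49 over 20 libraries and 0.46 over 18, and Gjb6 with 0.42 and 0.35. Relative to Vehicle 3 were higher in Pool 2 mice over 20 libraries, Gjb6, Aqp4 and the glycolytic enzyme Aldoc, against 2.8% of all genes, and Gjb6 alone over 18, against 1.6%. Aldh1l1, a folate enzyme that marks astrocytes, was 42.2 ± 4.93 CPM (SD, n = 5) in Control and 46.5 ± 3.96 CPM (SD, n = 5) in Pool 2 mice.

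**Figure D4:**
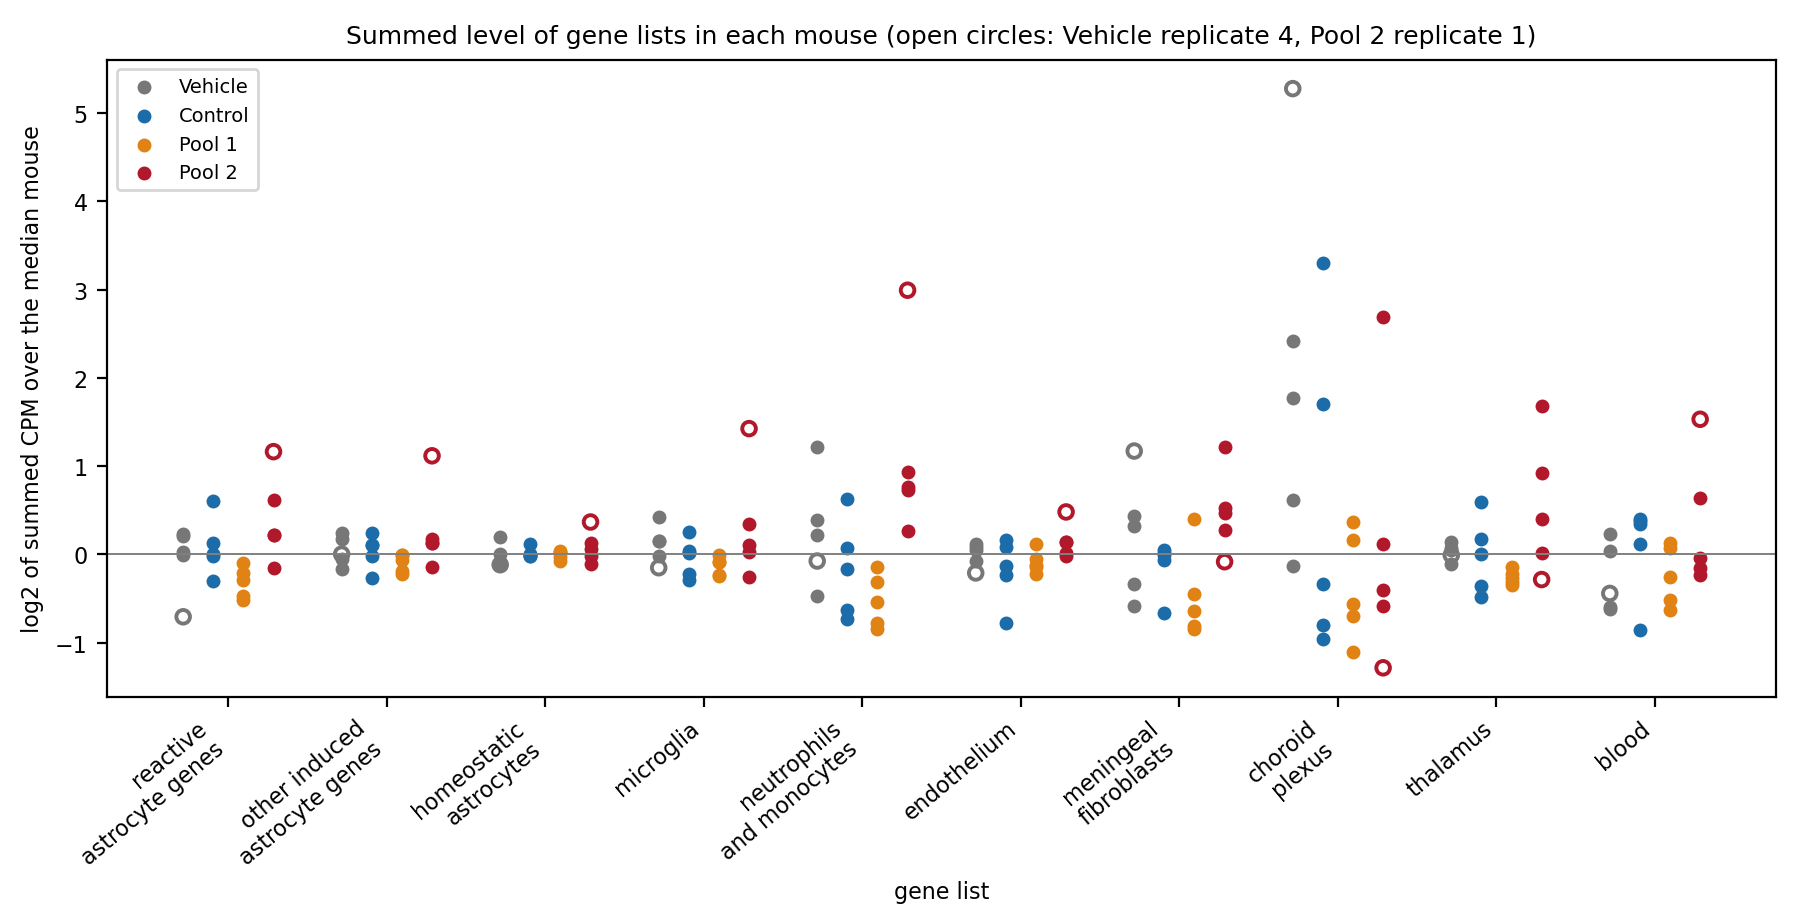
Summed CPM of each gene list in each mouse, as log2 of its ratio to the median mouse (vertical axis), for 10 lists (horizontal axis) and 4 groups, with open circles for Vehicle replicate 4 and Pool 2 replicate 1. Pool 2 replicate 1 is the highest mouse for the reactive, other induced, resting astrocyte, microglial, neutrophil and monocyte, endothelial and blood lists, and Vehicle replicate 4 is the highest for choroid plexus.

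Markers of other cells also moved in the comparisons of the pools with Control, where 5.2% of all genes over 20 libraries and 3.38% over 18 were upregulated in Pool 2 mice, and their part in the results was not tested. Of 10 microglial genes, 3 were upregulated in Pool 2 mice relative to Control over 20 libraries, Csf1r, Cx3cr1 and Ctss, and 0 over 18, where the median was 0.05. The summed microglial level ranged from 424 to 616 CPM in Control mice and from 434 to 659 CPM in Pool 2 mice without replicate 1, which had 1390 CPM. Of 8 neutrophil and monocyte genes in the table, 3 were upregulated in Pool 2 mice in both sets, Ccr2, Lyz2 and Mpo. Mpo was near the floor, at 0 to 0.0793 CPM in Control and 0.043 to 0.292 CPM in Pool 2 mice. Ccr2 was lower in Control than in Vehicle mice in both sets. Relative to Vehicle 2 of the 8 were higher in Pool 2 mice over 20 libraries and 0 over 18. The sum of the 8 ranged from 6.16 to 15.9 CPM in Control and from 12.3 to 19.7 CPM in Pool 2 mice without replicate 1, which had 81.7 CPM. Most of that was Lyz2, at 76.1 CPM, which microglia also express. The neutrophil genes S100a8 and S100a9 stood at 0.868 CPM each in that mouse, their highest values in Pool 2. In Control mice S100a8 ranged from 0.0884 to 0.357 CPM and S100a9 from 0.0398 to 0.492 CPM.

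Vessel, meningeal and neighbouring tissue genes also differed. Over 18 libraries 2 of 10 endothelial genes (Pecam1 and Vwf), 4 of 10 meningeal fibroblast genes (Foxc1, Igfbp2, Col1a2 and Slc6a13) and 5 of 7 thalamic genes were upregulated in Pool 2 mice relative to Control. Over 20 libraries the counts were 4 (with Cdh5 and Tek), 2 (Col1a2 and Foxc1) and 3 (Tcf7l2, Plekhg1 and Slc17a6). The thalamic genes over 18 libraries were Slc17a6, Tcf7l2, Plekhg1, Ramp3 and Rora, and the sum of all 7 was 128 to 271 CPM in Control mice, 141 to 163 CPM in Pool 1 mice and 181 to 576 CPM in Pool 2 mice without replicate 1, which had 147 CPM. Among 6 genes of CA1 pyramidal neurons, Neurod6 was downregulated in Pool 2 mice, with log2 fold changes of −0.42 over 20 libraries and −0.39 over 18. Of all genes 1.01% and 1.17% were downregulated there. In Pool 1 mice 1 of 8 choroid plexus genes, Otx2, was downregulated, with a log2 fold change of −1.27 in both sets, against 1.99% and 2.3% of all genes. All 8 were negative, with a median of −1.32. Over the 18 libraries Pool 1 mice were also lower in 1 of 10 microglial genes (Itgam) and 1 of 8 neutrophil and monocyte genes (S100a8). The same held for 2 of 10 meningeal fibroblast genes (Igf2 and Igfbp2), against 2.3% of all genes. No gene of the ependymal, oligodendrocyte, dentate granule cell or blood lists passed over 20 libraries in either pool relative to Control.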

How the data were processed

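Hippocampal mRNA of 20 mice was sequenced as stranded poly(A) libraries in 2 rounds per library. The authors aligned the reads to GRCm38 with STAR, summed the rounds and deposited raw counts per gene, without normalization, leaving out genes whose total was under 10. Which strand setting was used for counting is not given in the sources used here. Positions and exon lengths came from GENCODE M21, a later release than the one counted.

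Groups followed the sample labels. TMM factors scaled the counts of all 25190 genes. The quasi-likelihood test of edgeR 4.0.16, with a robust estimate of the spread, was run in R 4.3.3 on all groups together, once over 20 libraries and once over 18. P-values were adjusted over all genes after Benjamini and Hochberg. Levels are TMM-scaled CPM, and log2 CPM used a prior count of 2. The steps were tested on simulated data. Replicates differed by 8.07 to 66.5 times the sampling noise.

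All 10 genes are named, and of each other list up to 4 genes by the smallest p-value among those past the threshold in either pool against Control. Beyond this rule, Lif, Il6, Sphk1, Ramp3, Rora, Itgam, Gjb6, Kcnj10, Atp1b2, S100a8, S100a9, Igf2, Igfbp2, Slc6a13, Slc1a2, Aqp4, Aldoc, Aldh1l1 and Ttr were named after their values were seen. The genes, lists and the pair of libraries left out were chosen with earlier results of these data known. Alternatives were DESeq2 1.42.0, its size factors, filterByExpr, the default spread, 18 libraries, fits restricted to the compared groups, a replicate block, and the removal of each mouse in turn.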

Additional observations from a re-analysis of the deposited data

Results flagged for a closer look

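A pair of single values stood apart from their groups by Dixon's criterion (critical value 0.71 for 5 mice), among 40 groups of 5 mice tested, where chance gives about 1 in 20. Lcn2 in Control replicate 2 was 2.86 CPM, while the other Control mice had 0.119 to 0.23 CPM, a gap of 0.838 of the group's range on the log2 scale. Serpina3n in Vehicle replicate 4 was 74.5 CPM, while the other Vehicle mice had 222 to 277 CPM, a gap of 0.832 of the range.

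The effects of the pools, each relative to the same Control mice, differed by the direct edgeR test of Pool 2 against Pool 1 over 20 libraries for 8 genes at the unadjusted threshold. The log2 differences were 0.98 for Gfap, 1.19 for Vim, 2.66 for Steap4, 1.67 for Cd44, 0.71 for Osmr, 0.77 for S1pr3 and 0.64 for Cp. For Lcn2 the fitted difference was 6.65, which depends on the prior count because Pool 1 mice had 0 to 2 counts. No adjusted p-value among these was under 0.05, and the smallest was 0.157.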

How the results depend on the processing

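Counts of the 10 genes past the threshold depended on single mice. Pool 2 against Control gave 8 upregulated genes over 20 libraries, 3 over 18 libraries and 3 in a fit of only the groups compared. Leaving out 1 mouse gave 2 (without Pool 2 replicate 1) to 9 (without Control replicate 2), and the other removals under 6 were those of Control replicates 3 (4), 4 (5) and 5 (5). Pool 2 against Vehicle gave 4, then 0 over 18 libraries and 2 with only the groups compared, and 1 (without Pool 2 replicate 1) to 6 (without Pool 2 replicate 3) with 1 mouse left out, with 2 without Vehicle replicate 3 or 4 or Pool 2 replicate 2. Pool 1 against Control gave 1 downregulated gene, and 2 under DESeq2, filterByExpr, the default spread, 18 libraries and only the groups compared, with 0 to 1 when 1 mouse was left out, 0 without Control replicate 2 or 5 or Pool 1 replicate 1, 3 or 5. Control against Vehicle gave 1, 2 over 18 libraries, and 0 (without Vehicle replicate 4 or Control replicate 1, 4 or 5) to 2 (without Control replicate 2). Pool 1 against Vehicle gave 3, 6 over 18 libraries, 5 with only the groups compared, and 1 (without Vehicle replicate 2 or Pool 1 replicate 1, 2, 3 or 4) to 3. Pool 2 against Pool 1 gave 7 to 9 upregulated genes. None of the 10 genes passed in the opposite direction of any comparison in these fits. The cause of these shifts was not tested.

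The shared replicate numbers did not pair the mice, since deviations of same-numbered mice correlated by −0.32 to 0.28 (median 0.03) and 1 of 20 mice correlated best with its own number. With the replicate number as a block Pool 1 against Control gave 2 downregulated genes, and Lcn2 in Pool 2 against Control was 2.21 (p-value 0.067), past the threshold no longer.

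Signs turned only for values that were not called. Over 18 libraries they did so for Timp1 (−0.43) in Pool 2 against Control, for Vim (−0.09) and Serpina3n (−0.13) in Control against Vehicle, and for Steap4 (−0.21) and S1pr3 (−0.15) in Pool 2 against Vehicle. For Timp1 in Pool 1 against Vehicle the value was 0 with filterByExpr and 0.05 with the block. With 1 mouse left out, log2 fold changes in Pool 1 against Control ranged from −0.08 to 0.84 for Steap4, −0.23 to 0.07 for Osmr, −1.05 to 0.33 for Timp1, −0.23 to 0.01 for S1pr3 and −0.13 to 0.05 for Cp. In Pool 2 against Control Timp1 ranged from −0.43 to 1.62. In Control against Vehicle the ranges were −0.15 to 0.16 for Vim, −1.55 to 1.4 for Lcn2, −0.13 to 0.21 for Serpina3n and −0.36 to 1 for Timp1. Timp1 in Pool 1 against Vehicle ranged from −0.34 to 0.29. In Pool 2 against Vehicle the ranges were −0.41 to 0.03 for Serpina3n, −0.78 to 1.38 for Steap4 and −0.06 to 0.38 for S1pr3, and Serpina3n in Pool 2 against Pool 1 ranged from −0.20 to 0.24. Depth limits Lcn2, Timp1 and Steap4, which had under 10 counts in most mice of at least 1 group.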

Other observations

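The genes whose levels followed Gfap and Lcn2 most closely over the 18 libraries were sought by Spearman's rank correlation of log2 CPM, as a description over mice that share the group differences. Among 13357 genes with a mean count of at least 50, those nearest to Gfap were Fcgr3, an Fc receptor of microglia and macrophages, at 0.874, the anticoagulant Pros1 at 0.822, Agmo at 0.814, the interferon-induced GTPase Irgm1 at 0.812 and Tax1bp3 at 0.796. Among 18266 genes with a mean count of at least 5, those nearest to Lcn2 were the chemokine Cxcl5 at 0.892, the leukocyte myosin Myo1f at 0.853, the tubulin Tuba1c at 0.844, Ly86 at 0.839 and the growth arrest gene Gadd45a at 0.833.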
